A study of Mus musculus with 27 samples.

Results

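Formative pluripotent stem cells (fPSCs) are mouse cells grown in 3D in Matrigel, in a self-renewing state that lies between naive and primed pluripotency. The study derived them from embryonic stem cells (mESCs), as for the line used here, and also from epiblasts and induced pluripotent stem cells. Here the first passage (P1) of the CMT line was set against its later passages, P10, P20 and P30. The members are the genes whose P1 level lay outside the range of the 3 later libraries, on the scale log2(FPKM + 1), where FPKM is fragments scaled to transcript length and library size. The table listed 23608 entries, of which 23604 carried a name listed once. A level of 1 FPKM in any 1 of the 4 libraries was required, which 11003 genes met and 12601 did not. P1 lay outside the later range at 8074 genes, above it at 4244 (38.6% of those compared) and below it at 3830 (34.8%), and inside it at 2929. A member was called higher or lower in P1 when its gap to the nearest later library was at least 1 on that scale, which is 2-fold. This gave 283 genes called higher (2.57%) and 188 called lower (1.71%), 471 in all.

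The labels give all 4 libraries the genotype WT and a medium based on N2B27. It contained Activin A at 20 ng/ml, bFgf2 at 12 ng/ml and, at 5 uM, XAV939, a compound that lowers Wnt signalling. The labels name the passage only, and the line is given in the study's text. Each passage is 1 library of total RNA from 1 line, so P1 has no replicate, no test was run on it and its values are a description. For reference the series holds mESCs, epiblast-like cells (EpiLCs) and primed epiblast stem cells (EpiSCs) with 2 libraries each, Epiblastoids (3D cultures of mESCs in Matrigel that form polarised rosettes and lose this form after day 3) at day 2, 3 and 4, and 6 other fPSC libraries. The mESCs grew in N2B27 with LIF and inhibitors of MEK and GSK3. EpiLCs and Epiblastoids had 1% KSR, a serum replacement, with the same growth factors but without XAV939. EpiSCs had 15% KSR, the growth factors and XAV939, on mouse fibroblast feeders. Those 6 are CMT at P11, which was cryopreserved, the lines 46C at P24, BVSC at P14 and ROSAmTmG at P12, and 2 lines taken from epiblasts of embryonic day 5.5 and 6.5, both at P10. The 2 epiblast lines had the same doses of Activin A, bFgf2 and XAV939 as P1. For CMT at P11, 46C, BVSC and ROSAmTmG no doses were recorded here, so a shared medium is not established.

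Naive cells of the pre-implantation embryo have low DNA methylation and keep many germline and early developmental genes open. On leaving the naive state, cells switch on the de novo methyltransferases, and promoters of germline genes become methylated and silent. Signals of the gastrulating embryo, chiefly Wnt, Nodal and Fgf8, later switch on the genes of the primitive streak, from which mesoderm and endoderm arise.

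Several traits of the libraries moved with the comparison. The P1 library listed 10440 genes at 1 FPKM or more, and the later 3 listed 10034 to 10172. A list of 10 noncoding RNAs that carry no poly(A) tail summed to 12.9 FPKM in P1 and to 233 to 314 FPKM in the later passages. In CMT at P11 the sum was 5.48 FPKM, so that library is on the same side as P1. On that side were also EpiLCs (12.6 and 23.7 FPKM), EpiSCs (6.14 and 7.67), Epiblastoids at day 2 (15.5) and the lines 46C, BVSC and ROSAmTmG (3.91 to 9.81). High sums were found in mESCs (798 and 3597 FPKM) and in Epiblastoids at day 3 and 4 (615 and 764). The embryonic day 5.5 and 6.5 lines were high too (436 and 429 FPKM). Of the 10 RNAs in the list 4 were compared, and 3 were called lower (Rn7sk, Rn7s1 and Rn7s2). Histone genes went the other way, with sums of 77.5 FPKM in P1 and 31.4 to 40.9 FPKM in the later passages. Across the 11003 genes the median difference between P1 and the later mean was 0.02 (log2), and the median range among P10, P20 and P30 was 0.29. The part of these traits in the results, among them the comparisons with the reference libraries, was not tested. With CMT at P11 counted among the later passages, 180 of the 283 genes stayed higher and 101 of the 188 stayed lower. Without P30 the number lower was 293, and a pseudocount of 0.1 gave 531 higher and 360 lower.

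**Figure D1:**
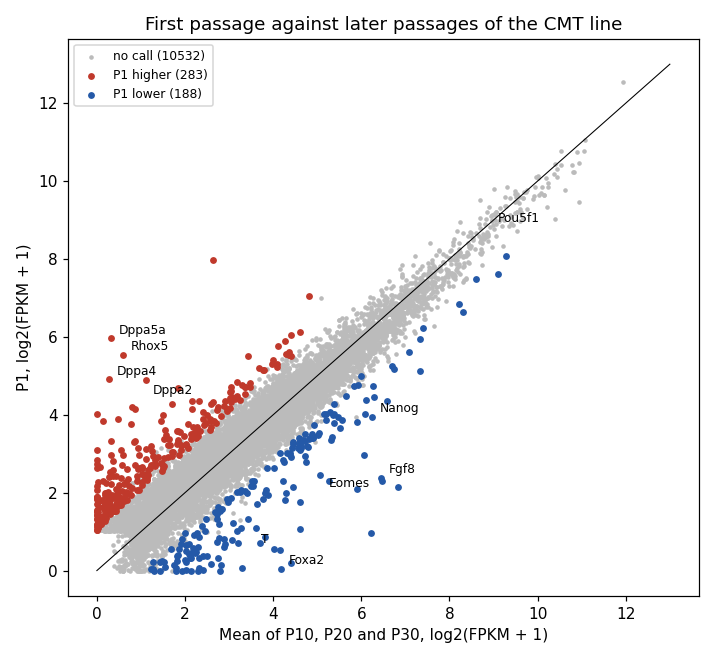
Each point is 1 of 11003 genes, with the mean of P10, P20 and P30 on the x axis and P1 on the y axis, both as log2(FPKM + 1), and the line marks equal values. Red points are the 283 genes called higher in P1 and blue points the 188 called lower. Dppa5a, Rhox5, Dppa4 and Dppa2 stand far above the line, and Fgf8, Foxa2, T, Eomes and Nanog below it.

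The promoters below are examples from both directions, with those of higher genes largely methylated and those of lower genes not. They do not stand for all higher genes, since 135 of the 239 higher genes with a value were under 50% methylated. The first 3 belong to genes higher in P1 and the last 2 to genes lower in P1. Each is the 250 bases before the annotated start site, read 5′ to 3′ on the gene's strand from NCBIM37 (mm9), with every CpG, the dinucleotide that is methylated, in capitals.
Dppa2, chr16:48310340-48310589, plus strand: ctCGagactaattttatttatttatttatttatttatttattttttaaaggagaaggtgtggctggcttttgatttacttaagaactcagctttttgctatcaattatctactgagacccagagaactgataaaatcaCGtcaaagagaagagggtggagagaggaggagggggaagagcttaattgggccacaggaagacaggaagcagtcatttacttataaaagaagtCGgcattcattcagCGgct
Mael, chr1:168168876-168169125, minus strand: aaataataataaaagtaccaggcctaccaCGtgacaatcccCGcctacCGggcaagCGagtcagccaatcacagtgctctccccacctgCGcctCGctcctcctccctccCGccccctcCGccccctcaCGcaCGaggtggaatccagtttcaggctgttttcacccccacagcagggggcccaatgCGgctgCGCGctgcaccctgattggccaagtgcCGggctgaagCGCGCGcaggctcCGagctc
Fmr1nb, chrX:66014764-66015013, plus strand: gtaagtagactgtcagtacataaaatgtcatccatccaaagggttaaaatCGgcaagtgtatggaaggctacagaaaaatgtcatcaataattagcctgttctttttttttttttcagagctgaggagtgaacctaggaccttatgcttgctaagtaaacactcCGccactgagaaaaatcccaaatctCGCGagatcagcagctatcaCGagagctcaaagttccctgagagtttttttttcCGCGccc
T, chr17:8627038-8627287, plus strand: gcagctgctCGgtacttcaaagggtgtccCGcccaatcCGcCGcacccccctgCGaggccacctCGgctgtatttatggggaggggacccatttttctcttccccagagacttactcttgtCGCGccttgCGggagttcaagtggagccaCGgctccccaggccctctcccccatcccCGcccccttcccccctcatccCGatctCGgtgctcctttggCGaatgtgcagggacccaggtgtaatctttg
Eomes, chr9:118387080-118387329, plus strand: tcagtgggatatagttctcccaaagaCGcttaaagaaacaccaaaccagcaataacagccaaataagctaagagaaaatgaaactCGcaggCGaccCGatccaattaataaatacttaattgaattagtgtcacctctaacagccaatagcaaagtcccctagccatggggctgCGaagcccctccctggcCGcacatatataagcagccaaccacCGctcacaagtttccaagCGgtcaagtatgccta
The stretches hold 4, 18, 7, 14 and 8 CpGs in that order. Methylation was measured in fPSCs at P10, not at P1. The 100 bp windows that overlap the stretch were methylated at 33% to 100% for Dppa2, 95% to 100% for Mael and 83% for Fmr1nb, which had 1 window. The windows of T and of Eomes were listed at 0%.

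The 12 genes named for the largest gaps above the later passages were of mixed function. By gap they opened with Dppa5a, Rhox5, Dppa4, Fmr1nb, Rps4l and Dppa2. Dppa5a, an RNA-binding protein of naive cells, stood at 61.6 FPKM in P1 and at 0, 0.109 and 0.756 FPKM in P10, P20 and P30, a difference of 5.65 (log2) from the later mean. Dppa4 and Dppa2, nuclear partners that keep early promoters open, were the third and the sixth by gap. Dppa4 had 29.1 FPKM in P1 against 0.22, 0.115 and 0.285, a difference of 4.64. Dppa2 had 28.8 FPKM against 0.737, 1.25 and 1.54, a difference of 3.79. In all 3 genes every later library was near 0, and P1 was far outside the later range.

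Rhox5, a homeobox gene of the X chromosome known for silencing by methylation, had 45.3 FPKM in P1 and 0.177, 0.795 and 0.618 FPKM in the later passages. Fmr1nb, a cancer-testis antigen, had 15.3 FPKM in P1 and was listed at 0 in all 3 later libraries and in the 6 other fPSC libraries. Rps4l, a ribosomal protein gene with near-identical paralogs, had 252 FPKM in P1 against 16.9, 10.2 and 0.17, and reads may be shared with its paralogs. It fell from passage to passage and was still at 16.9 FPKM at P10, unlike the genes above.

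Trim25, a ubiquitin ligase of antiviral signalling, had 13.4 FPKM in P1 and 0.253, 0.0499 and 0.0329 later. Apobec3, a cytidine deaminase that restricts retroviruses, had 16.9 FPKM against 1.34, 1.53 and 0.0413. Eng, a TGF-beta co-receptor, had 12.6 FPKM against 0.436, 0.772 and 0.952. The later levels of Trim25 and Eng were below 1 FPKM in every library, and those of Apobec3 were below 2 FPKM. Gpx3, an extracellular glutathione peroxidase, had 17.2 FPKM in P1 against 1.7, 0.861 and 0.0547. Pmaip1, the p53 target Noxa, had 13.9 FPKM against 1.35, 0.166 and 0. Platr10, a noncoding RNA of pluripotent cells, had 24.5 FPKM against 4.16, 2.28 and 1.69. P1 was above all 6 other fPSC libraries for 11 of these 12 genes. The exception was Pmaip1, which reached 31.1 FPKM in BVSC, 28.3 in ROSAmTmG and 22.4 in the embryonic day 6.5 line. Those 3 libraries lay above P1, while CMT at P11 was at 0.394 FPKM.

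**Figure D2:**
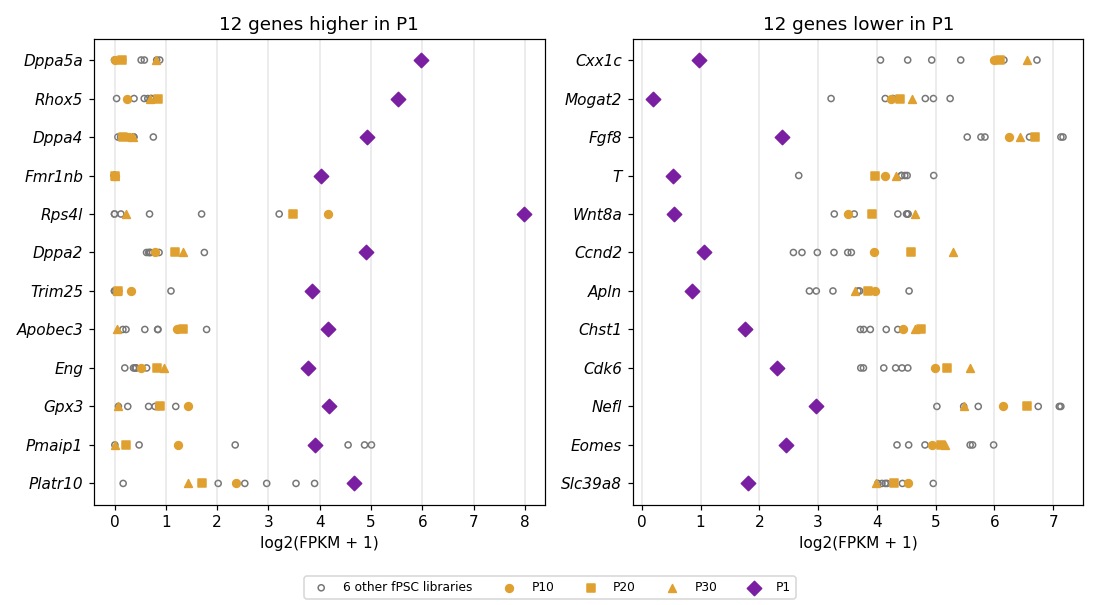
The 12 genes of largest gap in each direction are plotted by library as log2(FPKM + 1), with P1 as purple diamonds, P10, P20 and P30 as orange symbols and the 6 other fPSC libraries as open circles. P1 stands apart from all 9 other fPSC libraries for every gene shown except Pmaip1.

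In the other direction, 4 of the 12 genes named for the largest gaps were signals or factors of the primitive streak: Fgf8, T, Wnt8a and Eomes. Fgf8, a growth factor of the streak, had 4.23 FPKM in P1 and 75.1, 102 and 85.3 FPKM at P10, P20 and P30, a difference of -4.07 (log2). T (Brachyury), the streak and mesoderm transcription factor, had 0.452 FPKM in P1 against 16.5, 14.7 and 19.09, a difference of -3.61. Eomes, a T-box factor of mesendoderm, had 4.49 FPKM against 29.6, 32.9 and 34.7, a difference of -2.60. All 3 were expressed in every later library at a level that P1 did not approach. Wnt8a, a Wnt ligand of the early streak, had 0.459 FPKM in P1 against 10.4, 14 and 24.2.

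Cell cycle genes were also among them. Ccnd2, the G1 cyclin D2, had 1.09 FPKM in P1 and then rose at each step, with 14.5, 23 and 38.5 FPKM. Cdk6, a kinase that D cyclins activate, had 3.96 FPKM in P1 and 30.9, 35.6 and 47 FPKM later. Rb1, the inhibitor that these kinases inactivate, was called in the other direction, with 5.43 FPKM in P1 against 2.05, 1.93 and 0.768. Of the 18 compared genes of the G1 list, those 3 were the ones called, 1 higher and 2 lower, and the median of the list was -0.20 (log2).

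The remaining named genes lower in P1 were not of 1 group. Cxx1c, a retrotransposon-derived gene of the X chromosome, had the largest gap, with 0.954 FPKM in P1 against 62.3, 67.1 and 93.4, but its near-identical copies Cxx1a and Cxx1b may share its reads. Mogat2, an acyltransferase of fat synthesis, had 0.147 FPKM against 17.9, 20.1 and 23.3. Apln, a ligand of the apelin receptor, had 0.804 FPKM against 14.6, 13.3 and 11.3. These 3 were at under 1 FPKM in P1. Chst1, a sulfotransferase, had 2.38 FPKM against 20.9, 25.8 and 24.1. Nefl, a neurofilament chain, had 6.81 FPKM against 69.7, 93.4 and 43.6. Slc39a8, a zinc and manganese transporter, had 2.52 FPKM against 22, 18.5 and 14.9. For all 12 named genes P1 was below each of the 6 other fPSC libraries.

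The core pluripotency genes did not move as 1 group. Pou5f1 (Oct4) had 454 FPKM in P1 and 493, 462 and 499 FPKM later, a difference of -0.09 (log2). Sox2 had 28.7 FPKM against 26.6, 25 and 25.7, a difference of 0.15. Nanog, by contrast, had 14.4 FPKM in P1 against 75.4, 66.4 and 82.8, a difference of -2.29. Its level was 8.3 ± 0.426 FPKM in EpiLCs (SD, n = 2) and 315 ± 43 in mESCs (SD, n = 2), and in EpiSCs 17.7 ± 2.74 (SD, n = 2), so P1 lay between EpiLCs and EpiSCs. Of the 11 core genes compared, Dppa2 and Dppa4 were called higher and Nanog lower.

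Formative markers differed less. Of 16 compared, only Dnmt3a, a de novo DNA methyltransferase, was called, with 44.4 FPKM in P1 against 20.05, 21.4 and 18.9. Otx2, a transcription factor of the epiblast, had 89 FPKM against 48.9, 48.7 and 40.9, above the later range with a gap of 0.85. Pou3f1 (Oct6), a POU factor of the epiblast, had 69.4 FPKM against 34, 40.00 and 35.4, with a gap of 0.78. Neither gap reached 1. Fgf5, a growth factor of the post-implantation epiblast, had 74.1 FPKM in P1, inside the later range of 72.9 to 107. Dnmt3b, the other de novo methyltransferase, had 592 FPKM against 547, 435 and 413, a gap of 0.11. In this list 9 genes were above the later range and 2 below, with a median of 0.41 (log2).

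Of 15 naive markers 4 were compared and 3 were called higher. Of these, Zfp42 and Dppa5a passed the filter through P1 alone and so had to lie above. Zfp42 (Rex1) had 2.69 FPKM in P1 against 0.0179, 0 and 0. Fgf4, the growth factor that drives exit from the naive state, had 25.3 FPKM against 5.52, 6.54 and 10.2. The third was Dppa5a, above. Klf5, the fourth gene compared, lay below the later range at 1.93 FPKM against 4.38, 4.15 and 2.95. All 4 were higher in both EpiLC libraries than in P1, at 307 and 654 FPKM for Dppa5a and 58.6 and 58.9 for Fgf4. In the same libraries Zfp42 was at 7.8 and 11.3 FPKM and Klf5 at 7.28 and 3.69. The other 11, with Esrrb, Tfcp2l1, Klf2 and Klf4 among them, were under 1 FPKM in all 4 libraries.

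Germline genes were the list in which all compared genes were called higher. Of 18, 6 reached 1 FPKM and all 6 did so in P1 alone, so they had to lie above. Mael, which protects the germline from transposons, had 5.6 FPKM in P1 and was listed at 0 in P10, P20 and P30. Ddx4 (Vasa), a germ cell helicase, had 2.69 FPKM against 0.0223, 0 and 0. Sycp3, of the meiotic chromosome axis, had 2.42 FPKM against 0.0736, 0.0265 and 0. Tex19.1 had 4.12 FPKM in P1 and 0.753, 0.449 and 0.698 later, and Slc25a31 and Tuba3a were the other two. Dazl, an RNA-binding protein of germ cells, stayed under the filter at 0.884 FPKM in P1 and was listed at 0 later. Of 3 primordial germ cell genes compared, Dnd1 was called higher, at 4.38 FPKM against 0.28, 0.213 and 0.378. Dnd1 too passed the filter through P1 alone and so had to lie above. Tfap2c and Kit lay below the later range, each with a gap under 1.

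The streak, mesoderm and endoderm list held the largest group of lower genes. Of 23 genes 16 were compared, all 16 lay below the later range and 10 were called lower. Of the 16, 11 passed the filter through the later passages alone and so had to lie below in at least 1 of them, and these hold 6 of the 10 calls. The other 5 (Eomes, Mixl1, Wnt3, Fgf8 and Hhex) were at 1 FPKM or more in P1 too. Foxa2, the endoderm pioneer factor, had 0.0288 FPKM in P1 against 44.3, 20.02 and 5.24. Cer1, a secreted Nodal inhibitor, had 0.0392 FPKM against 21.1, 10.2 and 2.73. Lhx1, a factor of anterior mesendoderm, had 0.013 FPKM against 7.81, 5.53 and 1.54. These 3, near 0 in P1, were highest at P10 and lower at P30.

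Gsc, of the organizer, had 0 FPKM in P1 against 6.9, 4.09 and 1.87, and Mixl1, a mesendoderm homeobox factor, had 1.03 against 15.7, 6.97 and 4.57. Evx1, of the posterior streak, moved the other way after P10, with 0 FPKM in P1 and 1.44, 3.52 and 6.72 later. Wnt3, the ligand that starts the streak, had 7.85 FPKM against 20.1, 24.4 and 23.6. From P10 through P20 to P30, 8 of the 16 fell at each step and 3 rose. Sox17, Gata4, Gata6, Cxcr4, Hhex and Snai1 were below the later range with a gap under 1. In the 6 other fPSC libraries the spread between lines was wide. Foxa2 ranged from 9.43 to 81.9 FPKM with a median of 45.3, and Cer1 from 2.23 to 203 with a median of 51.3. P1 was below all 6 for 14 of the 16 genes, the exceptions being Cxcr4 and Hhex.

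Signalling lists followed in part. Of 9 Wnt targets compared, 8 lay below the later range and 4 were called lower. Of the 9, 5 passed the filter through the later passages alone, with 3 of the 4 calls among them (Sp5, Sp8 and T). Axin2, a feedback inhibitor that Wnt induces, had 2.58 FPKM in P1 against 12.2, 9.76 and 16.8. Sp5, a direct target of beta-catenin, was listed at 0 in P1 against 3.11, 2.26 and 2.09. Sp8 and T were the other two. Of 16 Nodal pathway genes, 3 were called higher and 1 lower. Lefty2, a Nodal inhibitor, had 18.4 FPKM in P1 against 1.29, 2.97 and 2.81. The ligands Gdf3 and Gdf1 were also higher, Gdf3 at 6.87 FPKM against 0.127, 1.05 and 0.519. The gene called lower was the inhibitor Cer1, so inhibitors of Nodal were found in both directions. Of 18 FGF and ERK genes, Fgf4 and Fgf15 were higher and Fgf8 lower. Fgf15, an FGF of the early epiblast and neural plate, had 41.2 FPKM in P1 against 13.5, 15.2 and 16.7. The median of the Nodal list was -0.03 and that of the FGF list 0.02. Of 8 BMP and Id genes none was called.

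Of 20 imprinted genes compared, 4 were called lower and none higher. Of the 4, Igf2, Usp29 and Dlk1 were under 1 FPKM in P1 and entered the comparison through the later passages alone. Igf2, a fetal growth factor, had 0.783 FPKM in P1 against 4.71, 6.79 and 6.25, and Phlda2, which limits placental growth, had 7.58 against 23.4, 25 and 22. Usp29 had 0.252 FPKM against 3.99, 3.45 and 2.74, and Dlk1, a Notch ligand family member, had 0.826 against 3.37, 4.54 and 4.2. CMT at P11 did not follow the other later passages here, since Usp29 was at 0.297 FPKM in it and Dlk1 at 1.47.

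In the early neural list Gbx2 and Tubb3 were called higher, 2 of 6 compared, against 2.57% of all compared genes. The list was split, with 3 genes above the later range and 3 below. Map2 lay above, and Nes, Sox11 and Cdh2 lay below, each with a gap under 1. Tubb3, a neuronal tubulin, had 21 FPKM in P1 against 7.56, 7.33 and 7.42. A single gene was called higher in the epithelial (Cldn4, of 24), p53 target (Pmaip1, of 14), fibroblast marker (Thy1, of 5) and DNA methylation enzyme (Dnmt3a, of 8) lists. A single gene was called lower in the hypoxia (Ndrg1, of 13) and basement membrane (Sparc, of 13) lists. No gene was called in the glycolysis, amino acid and unfolded protein stress, immediate early, Hippo-Yap, Polycomb, extraembryonic endoderm or trophoblast lists, and no 2-cell-like gene was compared. Fibroblast markers summed to 26.7 FPKM in P1 and to 12.3 to 12.7 FPKM in the later passages. Extraembryonic endoderm markers summed to 30.1 FPKM in P1 and 33.0 to 42.5 FPKM later, and trophoblast markers to 1.81 FPKM in P1 and 1.06 to 2.103 later.

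Among larger families, 25 of 31 compared histone genes lay above the later range and 2 were called higher, and 14 of the 31 passed the filter through P1 alone. Of 88 respiratory chain genes 57 lay below the range and 2 were called lower (Atp5g1 and Atp5g3), with a median of -0.34. Of 90 ribosomal protein genes 43 lay below and 19 above, with a median of -0.14, and the 3 called higher were the retrocopies or tissue-restricted copies Rpl10l, Rpl39l and Rps4l. Over all compared genes 38.6% lay above the range and 34.8% below it, with 2.57% called higher and 1.71% called lower. In bulk RNA a smaller share of cells that express a gene and less RNA per cell cannot be told apart.

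**Figure D3:**
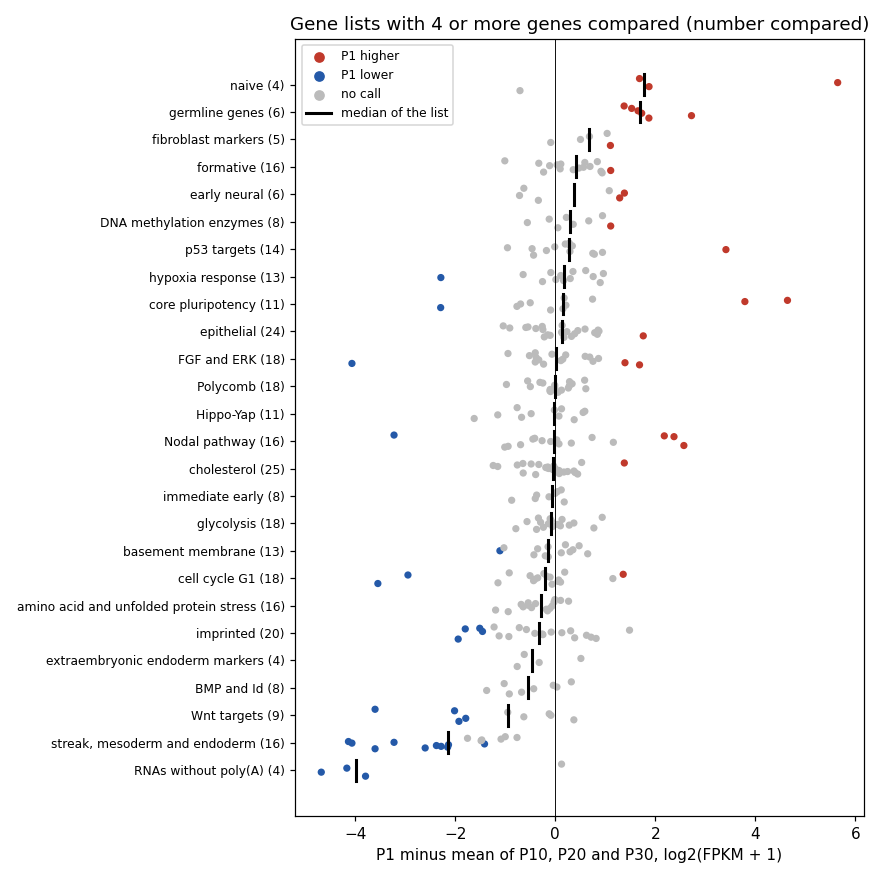
Each point is 1 compared gene of a list, placed by P1 minus the mean of P10, P20 and P30 on the log2(FPKM + 1) scale, with the list's median as a black bar and the number compared in brackets. The 3 RNAs without poly(A) called lower lie between -4.68 and -3.80. Medians of short lists rest in part on genes that passed the filter on 1 side only, among them all 6 germline genes and 11 of the 16 streak, mesoderm and endoderm genes.

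The gap of 1 cuts a continuous range. Just past it above were Fsd1 with a gap of 1.001 and Apc with 1.006, and just short of it Bub1 with 0.9996 and Elavl3 with 0.9985. Just past it below were Timm13 at -1.003 and Vangl1 at -1.005, and just short of it Il17rc at -0.9981 and Pdlim7 at -0.9970. Among the 188 lower entries, 22 were gamma protocadherins, adhesion molecules whose transcripts share their constant exons, so that they count the same reads many times. Pcdhgc3, 1 of them, had 10.5 FPKM in P1 and 30.3, 32.3 and 33.4 later, and with the family counted as 1 entry the number lower was 167. Small RNA and histone symbols made up 10 of the higher and 9 of the lower entries.

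All 3 later passages had to lie on the same side of P1 for a call, so a large part of the change is placed between P1 and P10 by the rule itself. Of the 283 higher genes 56 fell at each step from P1 through P10 and P20 to P30, and 53 of the 188 lower genes rose at each step, against 8.93% and 6.28% of all compared genes. Since a called gene starts outside the later range, its first step has a fixed direction. Ccnd2, Cdk6, Wnt8a and Evx1 rose at each step, and Rps4l, Rb1 and Pmaip1 fell. Between whole libraries, Pearson's r over the 11003 genes was 0.943 to 0.946 for P1 with the later passages and 0.979 to 0.987 among the later passages; genes are not independent replicates. P1 with EpiLCs gave 0.945 and 0.964, and with Epiblastoids 0.961 at day 2, 0.945 at day 3 and 0.896 at day 4.

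The 6 other fPSC libraries were not used to choose the genes. P1 was above all 6 for 244 of the 283 higher genes, against 16.6% of all compared genes, and below all 6 for 135 of the 188 lower genes, against 18.6%. The same P1 library stands in both comparisons, so these counts are not independent of the rule. By library, P1 was above it for 261 (ROSAmTmG) to 279 (the embryonic day 5.5 line) of the higher genes, and below it for 145 (ROSAmTmG) to 186 (the embryonic day 5.5 line) of the lower genes. Dppa4 was between 0.0464 and 0.689 FPKM in the 6, Dppa2 between 0.541 and 2.36, and Nanog between 53.6 and 91.5. None of these ranges reached the P1 value of its gene.

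The question here is where the called genes stand in cells on either side of the formative state. It was asked with limma on the 6 libraries of mESCs, EpiLCs and EpiSCs, none of which chose the genes, at a Benjamini-Hochberg adjusted p below 0.05 and 1.5-fold. Over the 12185 genes tested, 23.8% were higher and 20.2% lower in EpiSCs than in EpiLCs, and 14.8% were higher and 20.6% lower in EpiLCs than in mESCs. Of the 283 genes higher in P1, 265 were tested, of which 179 (67.5%) were lower in EpiSCs than in EpiLCs and 15 higher. Their median difference was -1.28 (log2), against -0.04 over all genes tested. Of the 188 lower in P1, 180 were tested, of which 128 (71.1%) were higher in EpiSCs than in EpiLCs and 5 lower, with a median of 1.72. EpiSCs grew on fibroblast feeders, and fibroblast markers summed to 703 and 837 FPKM in the 2 EpiSC libraries against 26.9 and 27.2 FPKM in EpiLCs, whose part in these calls was not tested. Y-linked genes also set these groups apart. Eif2s3y was at 0.0182 and 0.0298 FPKM in EpiSCs against 20.6 and 33.5 in EpiLCs. Uty was at 0.0127 and 0.00253 FPKM against 4.34 and 4.47. The part of this difference in the calls was not tested. Between EpiLCs and mESCs the split was less one-sided, and RNAs without poly(A) also differed between these groups, with a part not tested. Of the 265, 46.4% were higher in EpiLCs and 15.5% (41) lower, and of the 180, 28 were higher and 43 lower. Of the 265, 83 were both higher in EpiLCs than in mESCs and lower in EpiSCs than in EpiLCs.

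Dppa4 was at 26.2 ± 2.6 FPKM in mESCs, 60.5 ± 21.3 in EpiLCs and 0.158 ± 0.0354 in EpiSCs (SD, n = 2 each). The limma difference between EpiSCs and EpiLCs was -5.69 ± 0.27 (log2, SE, adjusted p = 1.63e-05). Rhox5 was at 256 ± 13.3 FPKM in EpiLCs and 0.904 ± 0.25 in EpiSCs, with a limma difference of -7.08 ± 0.26 (log2, SE, adjusted p = 1.43e-05). Both groups were well apart for these genes. T was at 0.212 ± 0.0622 FPKM in EpiLCs and 36.3 ± 8.78 in EpiSCs, with a limma difference of 4.93 ± 0.23 (log2, SE, adjusted p = 1.63e-05). Lefty2 and Nefl did not pass this test. The limma difference was 0.04 ± 0.45 (log2, SE, adjusted p = 0.954) for Lefty2 and 0.14 ± 0.22 (log2, SE, adjusted p = 0.637) for Nefl. Cdk6, at 1.20 ± 0.48 (log2, SE, adjusted p = 0.0769), also missed the threshold.

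In Epiblastoids, which have 1 library a day, some of the same genes can be read by day, in a medium without XAV939. RNAs without poly(A) summed to 15.5 FPKM at day 2 and to 615 and 764 FPKM at day 3 and 4. The part of this trait in the values by day was not tested. Dppa4 was at 47.1, 40.1 and 0.782 FPKM at day 2, 3 and 4, and Dppa2 at 64, 16 and 0.174. T was at 0.753, 15.5 and 38 FPKM, and Eomes at 5.72, 34.4 and 145. Dppa4 and Dppa2 were lowest and T and Eomes highest at day 4, but Wnt8a was highest at day 3, with 2.61, 14.03 and 7.85 FPKM. The P1 values of T and Eomes were closest to those at day 2. Nanog was at 13.9 FPKM at day 2, near its P1 level.

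**Figure D4:**
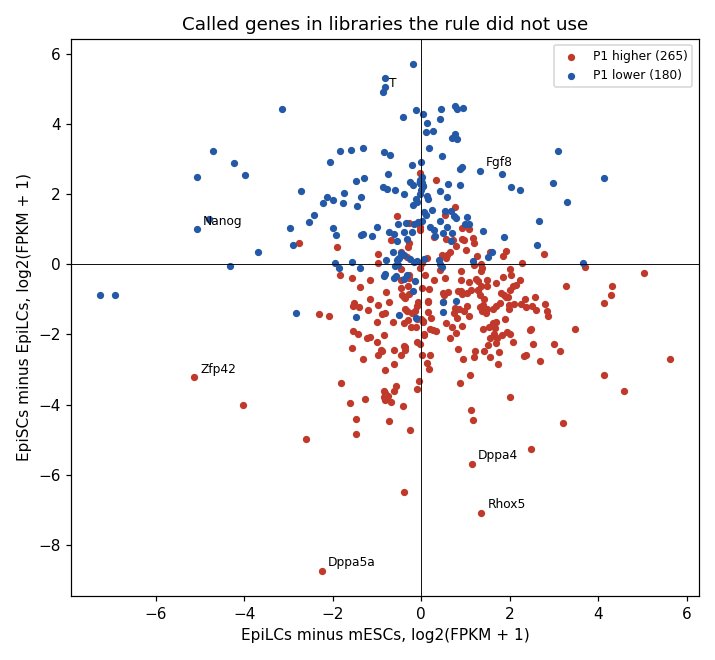
Each point is a called gene tested by limma, with the difference between EpiLCs and mESCs on the x axis and between EpiSCs and EpiLCs on the y axis, both on the log2(FPKM + 1) scale, 2 libraries a group. Of the 265 genes higher in P1 (red) 179 were lower in EpiSCs than in EpiLCs, and of the 180 lower in P1 (blue) 128 were higher.

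Promoter marks were measured at P10 only, and the labels do not give the line used for them, so they describe fPSCs at P10 and not the CMT line at P1. Methylation is the mean level of 100 bp windows within 1000 bp of the start site, and its coverage is unknown. Of the genes higher in P1, 239 had a value, with a median of 39.0%, and 104 of them (43.5%) were at 50% or more. Over all 9648 compared genes with a value the median was 18.1%, and 967 genes (10.02%) were at 50% or more. For the lower genes the median was 13.8%, with 18 of 149 (12.1%) at 50% or more. Genes that were higher in P1 and under 1 FPKM in all 3 later passages numbered 141, of which 117 had a value, with a median of 81.5%. Genes under 1 FPKM in all 4 libraries had a median of 84.4%, so the switched-off genes had a median close to that of other silent genes. These sets differed in CpG content, as given below.

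The switched-off genes had promoters of higher CpG content than other silent genes, with no test run on the difference. A promoter was counted as CpG-rich at an observed to expected CpG ratio of at least 0.6 over 1000 bp. The median ratio was 0.51 for the switched-off genes and 0.26 for genes silent in all 4 libraries. Of the CpG-rich promoters, 16 of 47 (34.0%) of the switched-off genes were methylated at 50% or more, against 155 of 1531 (10.1%) of the silent genes and 113 of 7340 (1.54%) of all compared genes. Mael was at 96.6%, Ddx4 at 93.9% and Trim25 at 91.8%, all with CpG-rich promoters. All 9 named genes higher in P1 that had a value were at 50% or more, from 67.6% (Apobec3) to 97.9% (Pmaip1). Of the 11 named lower genes with a value none reached 50%, from 0% (Ccnd2) to 48.2% (Mogat2). The naming rule itself bears on this contrast. Lower genes were named only at 10 FPKM or more in every later library, P10 included, while those 9 higher genes were at 1.7 FPKM or less at P10. It thus sets promoters silent or nearly so at P10 beside expressed ones. Fgf4, higher in P1 but still expressed later, was at 8.47%.

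**Figure D5:**
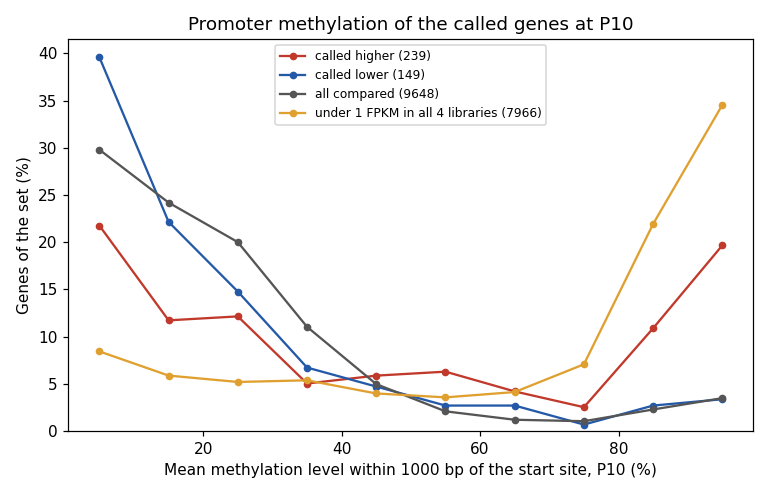
The x axis is the mean methylation level within 1000 bp of the start site in fPSCs at P10, in bins of 10%, and the y axis the percent of each set's genes, with the number of genes in brackets. At 50% or more were 43.5% of genes higher in P1 (red), 10.02% of all compared genes (grey) and 12.1% of genes lower in P1 (blue). For genes under 1 FPKM in all 4 libraries (orange) the share was 71.2%. Of the 104 higher genes at 50% or more, 75 were under 1 FPKM in all 3 later passages, P10 included.

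Histone marks within 5000 bp were given as mean RPKM, reads scaled to region length and library size. H3K4me3, the mark of active or poised promoters, had a median of 1.08 RPKM at genes higher in P1, 2.09 at genes lower in P1 and 1.84 at all compared genes. H3K27me3, the Polycomb mark, was over 1 RPKM at 33.5% of the higher genes (80 of 239), 29.5% of the lower genes (44 of 149) and 11.6% of all compared genes. Genes of both directions carried it at a larger share than compared genes as a whole. Genes under 1 FPKM in all 4 libraries had a share of 28.0% (2230 of 7966), much nearer to that of the called genes. No test was run on these shares. T had 3.89 RPKM of H3K4me3 and 3.07 of H3K27me3, and Foxa2 had 3.67 and 2.68. Both marks were thus high at T and Foxa2, which were expressed at P10. This did not hold for every named streak gene. H3K27me3 was at 1.61 RPKM at Eomes but under 1 RPKM at Fgf8 (0.779) and Wnt8a (0.502). Dppa4 had 0.472 RPKM of H3K4me3 and 0.27 of H3K27me3.

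Called genes came from each autosome and from both sex chromosomes. Chromosome medians of P1 minus the later mean were between -0.06 (chromosome 7) and 0.16 (chromosome 13) for the autosomes, and 0.04 for the X chromosome. The Y chromosome, with 3 compared genes, had a median of 1.69.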

How the data were processed

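RNA was measured in 19 libraries. The deposited FPKM values were made by the authors with Cufflinks 2.1.1, after trimming by cutadapt 1.11 and mapping by TopHat2 2.1.1 to mouse cDNA of build mm9, and no counts were used here, so read depth is unknown. The deposited H3K4me3 and H3K27me3 ChIP values are RPKM in 100 bp bins, aligned by the authors with Bowtie2 2.2.2, with replicates combined. The deposited methylation value is a fraction per 100 bp window without coverage, printed here as a percent. The single-cell files were not used here. Names listed more than once were left out.

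P1 was compared with P10, P20 and P30 as log2(FPKM + 1), with a filter of 1 FPKM in at least 1 library and a gap of 1. The members and the 32 gene lists were chosen with earlier results of these data known. The result of the cholesterol list is not reported here. The text names the 12 genes of largest gap in each direction at 10 FPKM or more (in P1, or in the lowest later library), without small RNA and histone symbols, up to 4 called genes of each list and direction, and 9 core genes. Start sites were those shared by most transcripts in the NCBIM37 annotation, which gave 1 position for 25898 gene names. Sequences come from the same build. limma 3.58.1 with trend (R 4.3.3) was fitted to mESCs, EpiLCs and EpiSCs on log2(FPKM + 1), with Benjamini-Hochberg adjustment. The labels do not say whether replicates were separate cultures, so p-values measure the spread between these samples only. Scripts used Python 3.11.15 and were tested on simulated data. Alternatives were other pseudocounts, filters, scalings, gaps and promoter windows, leaving out each replicate, and a replicate block.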

Additional observations from a re-analysis of the deposited data

How the results depend on the processing

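No test bears on P1, which is 1 library, and the depth behind an FPKM value is unknown, so low values near the filter carry the least weight. Of the 283 genes called higher and 188 called lower, the counts were 531 and 360 with a pseudocount of 0.1, 88 and 117 with a minimum of 10 FPKM, 893 and 620 with a gap of 1.5-fold, 30 and 25 with a gap of 4-fold, and 180 and 101 with CMT at P11 among the later passages. Without small RNAs and histone genes they were 273 and 179, and with gamma protocadherins counted as 1 entry 283 and 167, both chosen after seeing the data. Leaving out a later passage gave 323 to 371 higher and 209 to 293 lower, with 293 reached without P30. Upper quartile scaling gave 276 and 204, of which 274 and 188 were the same genes. The 32 named and core genes kept their direction wherever they were called, and in 25 of 224 values the difference moved by more than the spread of the later passages. For these, most often under the pseudocount of 0.1, the cause was not tested. Of genes higher in P1, 35.7% were methylated at 50% or more within 500 bp. The other promoter shares moved within their 95% Wilson intervals, and 3 chromosome medians lay over 0.1 from 0, or 4 after upper quartile scaling.

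The limma counts were 4311 genes between EpiLCs and mESCs and 5357 between EpiSCs and EpiLCs. With no filter they were 2685 and 3464, and leaving out 1 replicate gave 2677 to 3814 and 2287 to 5006, where a lone library is assumed to vary like the other groups. The lowest values were without the second mESC library (2677) and without the second EpiSC library (2287), with 2968 without the first. Upper quartile scaling turned the split from 1798 higher and 2513 lower to 2351 and 2145 for EpiLCs against mESCs, and from 2901 and 2456 to 2627 and 3014 for EpiSCs against EpiLCs. With the replicate number as a block the counts were 4107 and 5196. The deviations of same-numbered libraries correlated at 0.21, -0.20 and -0.14. With 2 libraries a group these values cannot decide whether the numbers pair the samples, and the block says nothing of a weaker effect.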

Other observations

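The 3 compared Y-linked genes were lower at P10, P20 and P30 than at P1 in the CMT line. Eif2s3y, a translation initiation factor subunit, was called higher in P1, at 19.12 FPKM against 8.13, 8.24 and 1.85 FPKM at P10, P20 and P30. Uty, a histone demethylase family member, was also called higher, at 6.32 FPKM against 2.02, 1.85 and 0.195. Ddx3y, an RNA helicase, had 10.1 FPKM in P1 against 6.84, 4.44 and 1.55, with a gap under 1. All 3 were lowest at P30. The cryopreserved P11 of the same line was above P10, P20 and P30 in all 3, with 21.5 FPKM of Eif2s3y, 4.5 of Uty and 10.1 of Ddx3y. All 3 were listed at 0 in the ROSAmTmG line.

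Several genes with low but clear levels in P1 lay outside the lists and were chosen here after their values were seen. Rbmxl2, a testis RNA-binding protein, had 7.56 FPKM in P1 and was listed at 0 in P10, P20 and P30, and its promoter was methylated at 96.9% at P10. Gpat2, a mitochondrial acyltransferase of the germline, had 6.19 FPKM in P1 against 0, 0.00505 and 0.0195, with 92.8% methylation. Tdrd12, a piRNA pathway gene, had 3.92 FPKM against 0.0987, 0.0444 and 0.138, with 98.6%.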
